A study of Mus musculus with 2 samples.

Results

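The 32 genes described here carry out or control the synthesis of sterols and fatty acids. They were taken by name from a given list, and all 32 were found among the 32285 features of the files. They fall into 5 groups by role: 7 genes of the mevalonate branch, 11 genes from squalene to cholesterol, 5 genes of the control machinery, 3 genes of sterol transport and 6 genes of the fatty acid branch. The study profiled immune cells sorted by flow cytometry from tumours of MC38, a mouse colon carcinoma line, with droplet 3′ single-cell RNA-seq. Both libraries, replicate 1 and replicate 2, belong to 1 group, MC38 tumour at day 21. The labels give no genotype, treatment, sex or age and do not say that the replicates came from separate animals. With the library as a block, the p-values below measure only how differences between classes varied across these 2 libraries. In the main comparisons this spread is pooled over all 6 classes, the small ones included. The deposited file names carry the letters WT beside Acly for replicate 1 and beside Scap for replicate 2; the labels do not explain this, and it was not used. Scap is a member of the list, and its level is given below in each library.

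Cells make cholesterol and fatty acids from acetyl-CoA. The mevalonate branch builds isoprenoid units up to farnesyl diphosphate, the squalene branch turns these into cholesterol, and fatty acid synthase, elongases and desaturases make and modify saturated and monounsaturated fatty acids. When sterols in the endoplasmic reticulum are low, the escort protein Scap carries the SREBP transcription factors, encoded by Srebf1 and Srebf2, to the Golgi for activation, whereas the Insig proteins hold them back. Macrophages are known for a second side of this metabolism, the uptake of lipoprotein cholesterol and its export through the lysosomal proteins Npc1 and Npc2 and the transporters Abca1 and Abcg1.

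The libraries held 2749 and 2937 barcodes with a median of 1309 and 1375 UMIs, and shared 0 barcodes. After filtering, 2378 barcodes of replicate 1 and 2801 of replicate 2 were kept, and each was put in a class by UMIs of a few marker genes. The first class, with 668 barcodes in replicate 1 and 962 in replicate 2, held no UMI of Ptprc (the leukocyte antigen CD45), Tyrobp, Nkg7 or the Cd3 genes. These Ptprc-negative barcodes go against the label of sorted immune cells: 4 leukocyte markers outside the gate summed to 225 and 172 CPM in them, against 6957 and 8343 CPM in C1q macrophages. CPM is the share of all UMIs of a class scaled to 1000000. Markers of epithelium, Krt8, Krt18, Krt7, Krt19 and Epcam, were at or near 0 in them and together had 0 UMIs in replicate 1 and 5 in replicate 2. Fibroblast markers (Col1a1, Col3a1, Dcn, Pdgfra and Mgp) were all detected in them, at 1410 and 1799 CPM in sum, against 111 and 62 in C1q macrophages, and their part in the results was not tested beyond leaving out barcodes with matrix genes. The class also split by library. A cluster led by Dcn, Rhox5 and Cst6 held 597 barcodes of replicate 1 and 5 of replicate 2, one led by Shisal2b and histone genes held 100 and 3, and one led by Crabp1, Mgp and Lgals7 held 1 and 1016. A smaller cluster led by the collagen gene Col1a1, Rarres2 and Col1a2, with Postn, Col3a1, Pi16 and Lox also among its leading genes, held 2 and 40 barcodes, and 33 of its 35 barcodes with a class were Ptprc-negative by the gate. Macrophages split likewise: a cluster led by Lyz2, Apoe and Trem2 held 912 and 43 barcodes and one led by Ly6i, Lyz1 and Fpr2 held 8 and 885.

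The libraries also differed in sex-linked RNA, with 1794 Xist and 0 Y-linked UMIs in replicate 1 and 0 and 384 in replicate 2. In the Ptprc-negative barcodes Xist reached 21.9 CPM in replicate 1, against 549 in C1q macrophages of that library. Y-linked genes reached 38.5 CPM in replicate 2, against 104 in its C1q macrophages. The other classes were C1q macrophages (868 and 606 barcodes), Cd3 T cells (39 and 110), dendritic cells without Siglech (34 and 14), plasmacytoid dendritic cells with Siglech (10 and 3) and neutrophils (3 and 7). The last 3 are too small by these gates for single genes: of the 32 members, 22, 18 and 5 had any UMI. For levels across classes, clusters named by their leading genes were therefore used as well, a choice made after seeing the data. The first 3 clusters above, called the Ptprc-negative clusters after the gate most frequent in them, held 698 and 1024 barcodes. Not all of these passed the gate: of the 530, 94 and 893 barcodes with a class in the 3 clusters, 512, 92 and 884 did, and the 4 leukocyte markers summed to 212 and 151 CPM. The other cluster classes held 30 and 18 barcodes for plasmacytoid cells, 149 and 36 for other dendritic cells, 86 and 375 for T cells, 26 and 171 for neutrophils and 948 and 937 for macrophages. Clusters without a class by leading genes were left out. These were the Col1a1 cluster above and one led by Chil3, Mgl2 and Napsa (288 and 170 barcodes). Clusters led by Hist1h4d and Hist1h1b (114 and 15) and by Gzmc and Gzmg (37 and 15) were left out too. The C1q genes, which mark macrophages, were detected in every cluster class. They summed to 218 and 73.1 CPM in the Ptprc-negative clusters, 3799 and 3672 CPM in plasmacytoid cells, 3905 and 5367 CPM in other dendritic cells, 3832 and 4083 CPM in T cells and 7125 and 5393 CPM in neutrophils, against 10352 and 7082 CPM in macrophages. In the dendritic clusters led by Txndc16 and Xcr1 and by Ccr7 and Ccl22, C1q macrophage was the most frequent gate. It held 32 of 74 and 16 of 30 of their barcodes with a class. Other dendritic cells held 7094 and 4006 CPM of the macrophage markers Csf1r, Cd68, Mrc1, Adgre1 and Apoe, beside 13364 and 13938 CPM of dendritic markers. The part of macrophage RNA or of macrophage barcodes in the values of the other immune clusters was not tested.

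Promoter sequences were read for the 25 members found by symbol in the RefSeq promoter table of build GRCm38.p6. Fdft1, Fdps, Npc1, Scd1, Scd2, Sqle and Stard4 are named only. Within the 250 bases before the start, the motif CCAAT on either strand was present in 21 of the 25 (84.0%), against 37.5% of 27025 genes. The SREBP element TCACNCCAC, on either strand, was present in 1 of the 25, Hmgcs1 (4.0%), against 1.22% of all genes. The E-box CACGTG was present in 5 of the 25 (20%: Dhcr7, Hsd17b7, Insig1, Sc5d and Scap), against 6.86%. The 4 promoters below are shown because they belong to a pair of members that were higher in Ptprc-negative barcodes (Fasn, Acsl3), to 1 that was lower (Ebp), and to the 1 member with the SREBP element (Hmgcs1). They read 5′ to 3′ along the gene's strand and lie at chr11:120824548-120824797 (minus strand), chr1:78657575-78657824 (plus), chrX:8193513-8193762 (minus) and chr13:119690101-119690350 (plus). Capitals mark CCAAT or its reverse complement, which overlap once in Fasn, and the SREBP element in Hmgcs1. Elovl6, also higher in Ptprc-negative barcodes, had 0 matches to CCAAT and 0 to the SREBP element and is not shown. Npc2, which was lower, had 2 matches to CCAAT and is not shown either. A match is a description of the letters, not of binding.
Fasn: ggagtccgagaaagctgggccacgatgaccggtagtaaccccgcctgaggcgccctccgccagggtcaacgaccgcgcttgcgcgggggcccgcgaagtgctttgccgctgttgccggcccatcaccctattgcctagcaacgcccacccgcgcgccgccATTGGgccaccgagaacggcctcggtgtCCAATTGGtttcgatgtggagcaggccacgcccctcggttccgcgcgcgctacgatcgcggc
Acsl3: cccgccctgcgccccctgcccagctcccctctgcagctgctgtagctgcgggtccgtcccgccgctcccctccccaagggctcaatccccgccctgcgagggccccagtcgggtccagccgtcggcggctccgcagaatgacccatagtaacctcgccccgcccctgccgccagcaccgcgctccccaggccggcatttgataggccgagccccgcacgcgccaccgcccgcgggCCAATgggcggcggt
Ebp: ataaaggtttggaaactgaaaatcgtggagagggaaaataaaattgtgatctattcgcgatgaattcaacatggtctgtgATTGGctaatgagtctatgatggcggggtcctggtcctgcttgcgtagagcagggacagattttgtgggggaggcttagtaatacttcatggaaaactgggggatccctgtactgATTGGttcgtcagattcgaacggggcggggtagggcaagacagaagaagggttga
Hmgcs1: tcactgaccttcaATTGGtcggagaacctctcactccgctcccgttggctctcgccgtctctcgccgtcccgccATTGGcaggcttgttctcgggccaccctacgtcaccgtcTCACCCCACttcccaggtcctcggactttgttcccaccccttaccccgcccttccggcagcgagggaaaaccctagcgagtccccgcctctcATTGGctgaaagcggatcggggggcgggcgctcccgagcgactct

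The fatty acid branch was the group of members that differed most often between Ptprc-negative barcodes and C1q macrophages. Of its 6 members 5 were higher in Ptprc-negative barcodes: the desaturases Scd1 and Scd2, fatty acid synthase Fasn, the elongase Elovl6 and the acyl-CoA ligase Acsl3. The lysosomal cholesterol exporters Npc1 and Npc2 and the sterol isomerase Ebp were lower, and of the mevalonate and squalene genes only Fdps, farnesyl diphosphate synthase, was higher. These calls depend on the test. With DESeq2 those of Scd1, Elovl6 and Npc1 ended and Acsl3 received no adjusted p. Under the filterByExpr rule on low counts, only Scd2, Fdps and Npc2 of these genes were tested, and they were called. Raw UMIs were summed per library and class and tested with edgeR's quasi-likelihood test on the 12 sums of 6 classes, with the library as a block and Benjamini-Hochberg adjustment over all 8758 genes tested. Of the 32 members 31 were tested; the sterol reductase gene Tm7sf2 had too few UMIs, with 2 and 6 in Ptprc-negative barcodes and 6 and 6 in macrophages. Among the 31, 6 were called higher and 3 lower at an adjusted p under 0.05. Of all genes tested, 10.7% were called higher and 17.0% lower, 27.7% in all. The share of members called is thus near the background, and the list as a whole did not stand apart. The median log2 fold change of the 31 was 0.64, against 0.04 over all genes. A gene was tested where both library sums of at least 1 class held 10 or more UMIs. This held for 30 members in Ptprc-negative barcodes and for 17 in macrophages. Scd1, Fasn, Elovl6 and Acsl3 passed the filter in Ptprc-negative barcodes but not in macrophages, and Npc1 the reverse. For these genes the filter favours the direction called, and it favours a positive median of the members.

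**Figure D1:**
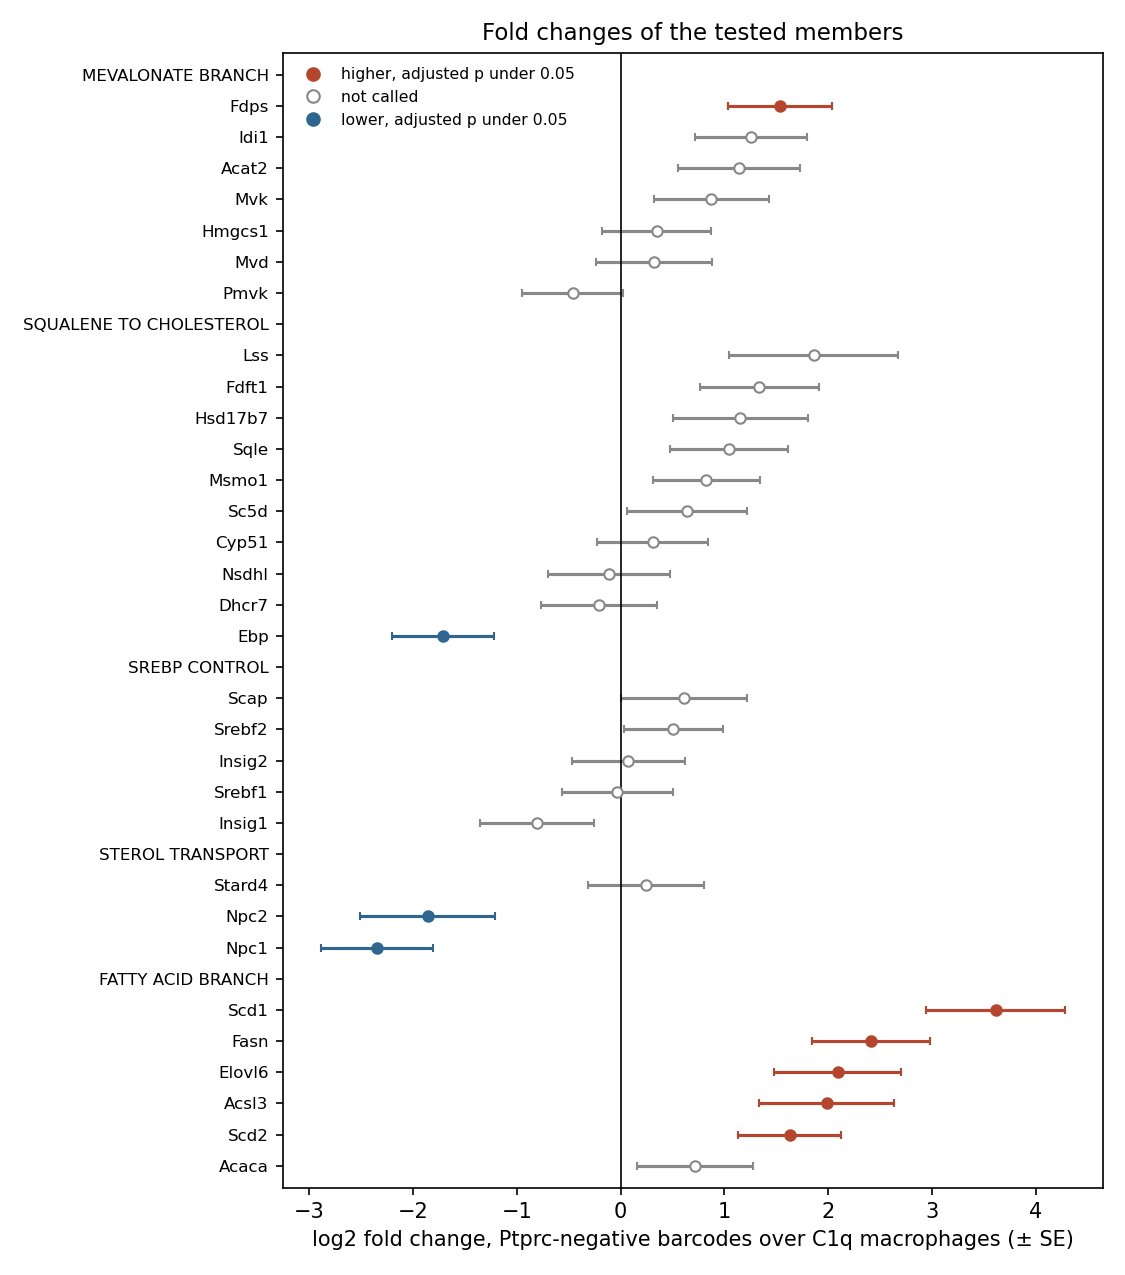
Log2 fold change (± SE, edgeR) of the 31 tested members in Ptprc-negative barcodes over C1q macrophages, grouped by role; filled points passed the threshold. The fatty acid members lie at 0.71 to 3.61, whereas Npc1 and Npc2 lie at -2.35 and -1.86 and the control genes lie between -0.81 and 0.61.

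The desaturase Scd1 (chr19:44394455-44407879, minus strand, GRCm38), which makes monounsaturated fatty acids, had 60 UMIs in replicate 1 and 113 in replicate 2 of the Ptprc-negative barcodes, against 4 and 3 in macrophages. On the CPM scale it had 31.2 and 41.0 in Ptprc-negative barcodes, against 2.3 and 3.4 in macrophages. Both Ptprc-negative values lay above both macrophage values, and the summed counts differed 13.8-fold (exact 95% interval 6.58 to 35.0, counting error only). The log2 fold change was 3.61 ± 0.67 (SE, edgeR adjusted p = 8.1e-07). Its neighbour and paralog Scd2 (chr19:44293674-44306864, plus strand) had 136 and 192 CPM, against 37.5 and 74.5 CPM in macrophages. The groups did not overlap, and the log2 fold change was 1.63 ± 0.50 (edgeR adjusted p = 0.0052). For Scd1 and Scd2 the gap between the classes adds no support, since the test that picked them used the same values. Scd1 and Scd2 are similar in sequence, and how reads shared by them were assigned is not given in the sources used here.

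Fatty acid synthase, Fasn (chr11:120805846-120824547, minus strand), which assembles palmitate, had 57.3 and 46.5 CPM in Ptprc-negative barcodes, against 13.8 and 5.6 CPM in macrophages. Its log2 fold change was 2.41 ± 0.57 (edgeR adjusted p = 0.00016). The elongase Elovl6 (chr3:129532355-129638495, plus strand), which extends palmitate, had 19.3 and 18.5 CPM in Ptprc-negative barcodes, against 5.2 and 3.4 CPM in macrophages (2.09 ± 0.61, edgeR adjusted p = 0.0035). Acsl3 (chr1:78657825-78707743, plus strand), which activates long-chain fatty acids, had 9.9 and 21.4 CPM in Ptprc-negative barcodes, against 3.5 and 3.4 CPM in macrophages (1.98 ± 0.65, edgeR adjusted p = 0.010). It shares exon sequence on the same strand with Utp14b, so its counts are less certain. In each of these genes both Ptprc-negative libraries lay above both macrophage libraries, which adds no support since the test that picked them used the same values. Acetyl-CoA carboxylase, Acaca, which makes the malonyl-CoA that Fasn uses, did not pass: 12.5 and 16.7 CPM in Ptprc-negative barcodes, against 8.7 and 9.0 CPM in macrophages, log2 fold change 0.71 ± 0.56 (edgeR adjusted p = 0.38).

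At a common depth Scd1 and Scd2 differed in the share of barcodes with a UMI. This adds no support, since the test that picked them used the same UMIs. After thinning each barcode to 1000 UMIs, which left out 151 and 166 Ptprc-negative barcodes under that depth, Scd1 was seen in 2.90% and 4.40% of Ptprc-negative barcodes, against 0% and 0.49% of macrophages. The 0 of 633 macrophage barcodes in replicate 1 allows a share with a UMI at this depth of up to 0.474% by the limit of 3 counts and 0.581% by the exact 95% interval. Without thinning these shares were 8.08% and 10.1% of Ptprc-negative barcodes, against 0.46% and 0.50% of macrophages. For Scd2 the thinned shares were 11.8% and 19.3% of Ptprc-negative barcodes, against 4.27% and 6.59% of macrophages. No class here is known to lack these genes, so no background share can be set beside them. Most barcodes of either class showed no UMI of any 1 of these genes at this depth.

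**Figure D2:**
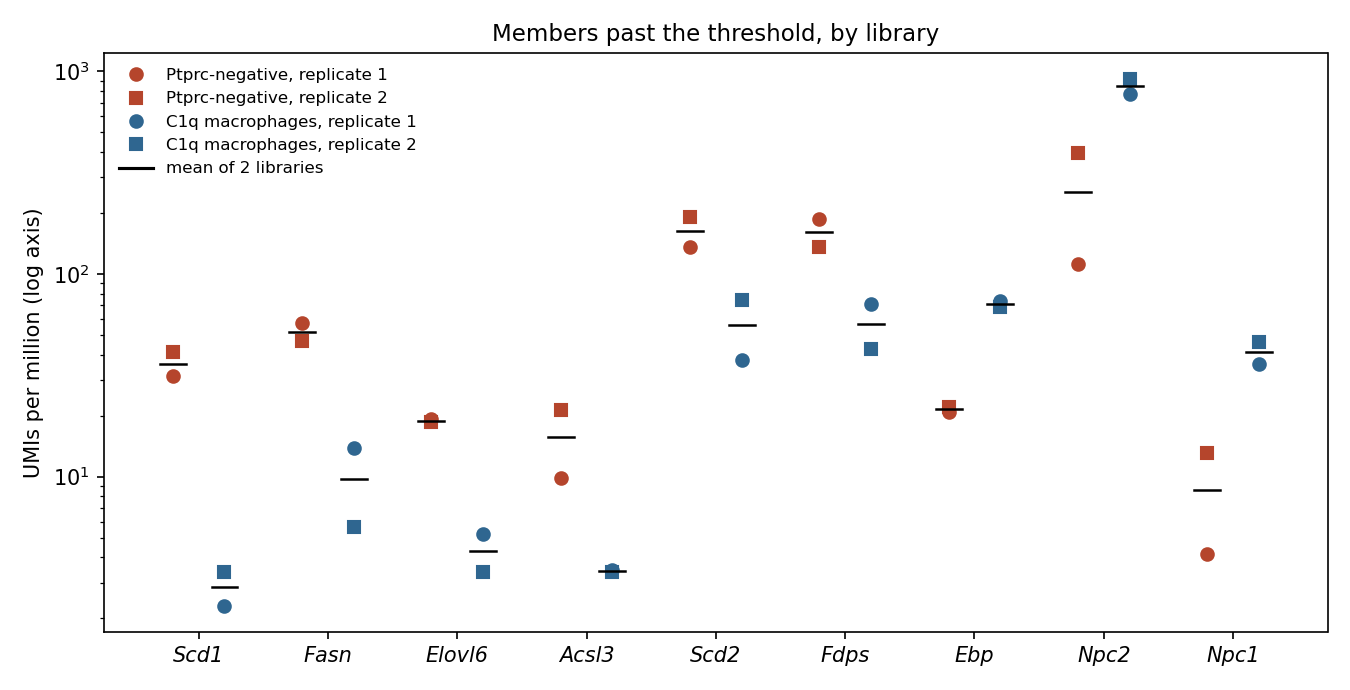
CPM (log axis) of the 9 members past the threshold, with circles for replicate 1, squares for replicate 2 and a bar at the mean of both libraries; Ptprc-negative barcodes stand left of C1q macrophages for each gene. The genes were picked by the test on these same values, so a gap between the classes adds no support. Scd1 lies at 31.2 and 41.0 in Ptprc-negative barcodes, against 2.3 and 3.4 in macrophages, and Npc2 at 112 and 394, against 773 and 914 in macrophages.

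In the mevalonate branch, Fdps (chr3:89093588-89101959, minus strand), which makes farnesyl diphosphate, had 187 and 135 CPM in Ptprc-negative barcodes, against 71.0 and 42.9 CPM in macrophages. Its log2 fold change was 1.54 ± 0.50 (edgeR adjusted p = 0.010), and it held 360 of the 699 and 373 of the 683 UMIs of the branch in Ptprc-negative barcodes. The isomerase Idi1 had 31.8 and 28.7 CPM in Ptprc-negative barcodes, against 10.4 and 15.8 CPM in macrophages and missed the threshold (log2 fold change 1.26 ± 0.54, edgeR adjusted p = 0.067). Hmgcs1, which makes HMG-CoA and holds the SREBP element shown above, had 24.99 and 25.8 CPM in Ptprc-negative barcodes, against 20.2 and 20.3 CPM in macrophages (0.35 ± 0.52, edgeR adjusted p = 0.69). The phosphomevalonate kinase Pmvk had 56.8 and 19.96 CPM in Ptprc-negative barcodes, against 49.0 and 48.5 CPM in macrophages, so the Ptprc-negative libraries lay on either side of the macrophages. Acat2, Mvk and Mvd, which open the branch, phosphorylate mevalonate and remove its carboxyl group, did not pass, with log2 fold changes of 1.14, 0.87 and 0.32.

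From squalene to cholesterol 10 of the 11 genes were tested and 1 passed, beside 27.7% of all genes tested. Ebp (chrX:8185329-8193512, minus strand), a sterol isomerase, had 20.8 and 22.1 CPM in Ptprc-negative barcodes, against 73.8 and 68.8 CPM in macrophages; the difference was -1.71 ± 0.49 on the log2 scale (edgeR adjusted p = 0.0028). Lanosterol synthase, Lss, had 7.8 and 5.8 CPM in Ptprc-negative barcodes, against 2.3 and 1.1 CPM in macrophages, from 4 and 1 UMIs (log2 fold change 1.86 ± 0.81, edgeR adjusted p = 0.073), and squalene synthase, Fdft1, had 11.97 and 25.04 CPM in Ptprc-negative barcodes, against 8.1 and 4.5 CPM in macrophages (1.34 ± 0.58, edgeR adjusted p = 0.068). Sqle, the squalene epoxidase, had 9.4 and 30.1 CPM in Ptprc-negative barcodes, against 8.1 and 9.0 CPM in macrophages. The other tested genes of this group, Hsd17b7, Msmo1, Sc5d, Cyp51, Nsdhl and Dhcr7, which trim and reduce the sterol ring, had log2 fold changes between -0.21 and 1.15 and adjusted p-values of 0.19 or more.

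None of the 5 control genes was called by edgeR, beside 27.7% of all genes tested, and 0 of them had an unadjusted p under 0.05. So few genes allow no reading of the group. Srebf2, which encodes the SREBP chiefly tied to sterol synthesis, had 52.6 and 70.0 CPM in Ptprc-negative barcodes, against 42.1 and 42.9 CPM in macrophages (log2 fold change 0.51 ± 0.48, edgeR adjusted p = 0.49). Srebf1, whose product is chiefly tied to fatty acid synthesis, had 13.0 and 14.2 CPM in Ptprc-negative barcodes, against 11.5 and 16.9 CPM in macrophages, so the classes overlapped. The escort gene Scap had 9.4 and 10.2 CPM in Ptprc-negative barcodes, against 7.5 and 5.6 CPM in macrophages. The retention genes Insig1 and Insig2 had log2 fold changes of -0.81 ± 0.55 and 0.07 ± 0.54.

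Among the 3 transport genes, Npc2 (chr12:84754562-84773152, minus strand), the soluble lysosomal protein that hands cholesterol to Npc1, had 112 and 394 CPM in Ptprc-negative barcodes, against 773 and 914 CPM in macrophages (log2 fold change -1.86 ± 0.65, edgeR adjusted p = 0.017). The Ptprc-negative libraries differed from each other here, and the log2 fold change was -2.71 in replicate 1 and -1.26 in replicate 2 when each was taken alone, with no test. Npc1 (chr18:12189692-12236400, minus strand), the membrane partner, had 4.2 and 13.1 CPM in Ptprc-negative barcodes, against 35.8 and 46.3 CPM in macrophages (-2.35 ± 0.54, edgeR adjusted p = 0.00011). Stard4, a cytosolic sterol carrier, had 13.5 and 10.2 CPM in Ptprc-negative barcodes, against 7.5 and 13.5 CPM in macrophages, and the classes overlapped. With DESeq2 the calls of Scd1 (adjusted p = 0.14), Elovl6 (0.70) and Npc1 (0.58) ended and Acsl3 received no adjusted p, and DESeq2 called 196 genes higher and 877 lower (16.8% of those with an adjusted p), against 937 and 1487 in edgeR. The filterByExpr rule left 6 members to test, of which Fdps, Scd2 and Npc2 were called; the other 6 calls ended because those genes were not tested. With edgeR but without the library block Fdps (adjusted p = 0.065) and Npc2 (0.064) missed the threshold.

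Related genes outside the 32 members were read from a pair of further lists. Of 17 other synthesis genes 14 were tested and 2 were higher: the desaturase Fads2 (23.9 and 14.5 CPM in Ptprc-negative barcodes, against 5.8 and 1.1 CPM in macrophages; log2 fold change 2.39 ± 0.63, edgeR adjusted p = 0.00097) and malic enzyme Me1, a source of NADPH (15.1 and 35.6 CPM in Ptprc-negative barcodes, against 1.7 and 1.1 CPM in macrophages; 3.75 ± 0.72, edgeR adjusted p = 2.5e-06). In replicate 1 alone Me1 was at 2.77, and with DESeq2 the call of Fads2 ended (adjusted p = 0.31). Fads2 and Me1 held under 10 UMIs in at least 1 macrophage library. They did not pass the filter through macrophages, which favours a higher call. The 3 genes not tested were Acacb, with 0 UMIs in both classes, Acss2 and Lpin1. The list's median log2 fold change was 0.06. Over all genes tested, 10.7% were called higher and 17.0% lower, so 2 higher calls among 14 genes do not set the list apart. Citrate lyase, Acly, which supplies cytosolic acetyl-CoA, had 42.7 and 39.9 CPM in Ptprc-negative barcodes, against 34.0 and 59.8 CPM in macrophages.

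Of 17 genes of lipid uptake, storage and efflux, all tested, 12 were lower in Ptprc-negative barcodes and 0 higher, with a median log2 fold change of -2.61. Of all genes tested, 17.0% were called lower and 10.7% higher. The list was chosen with earlier results of these data known, so the count is a description only. Nr1h3, Abca1 and Abcg1 held under 10 UMIs in at least 1 Ptprc-negative library. They did not pass the filter through that class, which favours a lower call. The sterol-sensing nuclear receptor gene Nr1h3 had 1 UMI in each Ptprc-negative library, against 35 and 51 in macrophages, a ratio of summed counts of 0.013 (exact 95% interval 0.0016 to 0.049). The efflux transporters were also lower: Abca1 had 1.0 and 10.5 CPM in Ptprc-negative barcodes, against 98.1 and 79.0 CPM in macrophages (log2 fold change -4.07 ± 0.58, edgeR adjusted p = 7.0e-11), and Abcg1 had 1.0 and 4.7 CPM in Ptprc-negative barcodes, against 44.4 and 133 CPM in macrophages (-4.86 ± 0.63, edgeR adjusted p = 5.1e-13). The lipoprotein gene Apoe, itself a macrophage marker used to check the classes, had 211 and 55.5 CPM in Ptprc-negative barcodes, against 16712 and 4079 CPM in macrophages. The scavenger receptor gene Cd36, lipoprotein lipase Lpl, the acid lipase Lipa, the cholesterol acyltransferase Soat1, the phospholipid transfer gene Pltp, the sterol hydroxylase Ch25h, the fatty acid binding protein gene Fabp5 and the ubiquitin ligase gene Mylip were lower too, with log2 fold changes between -5.29 and -1.69. Several of these differed in size between libraries. Taken alone, replicates 1 and 2 gave -5.79 and -2.86 for Abca1, -5.47 and -3.28 for Lpl, -1.69 and -3.74 for Fabp5 and -1.0 and -2.56 for Mylip, and Nr1h3 (-4.07) and Ch25h (-4.53) were smaller in replicate 1. With DESeq2 the calls of Mylip (adjusted p = 0.88) and Lipa (0.12) ended. In the same barcodes, 5 macrophage check markers, Apoe among them, summed to 228 and 81.7 CPM, against 17855 and 5555 CPM in the macrophages.

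**Figure D3:**
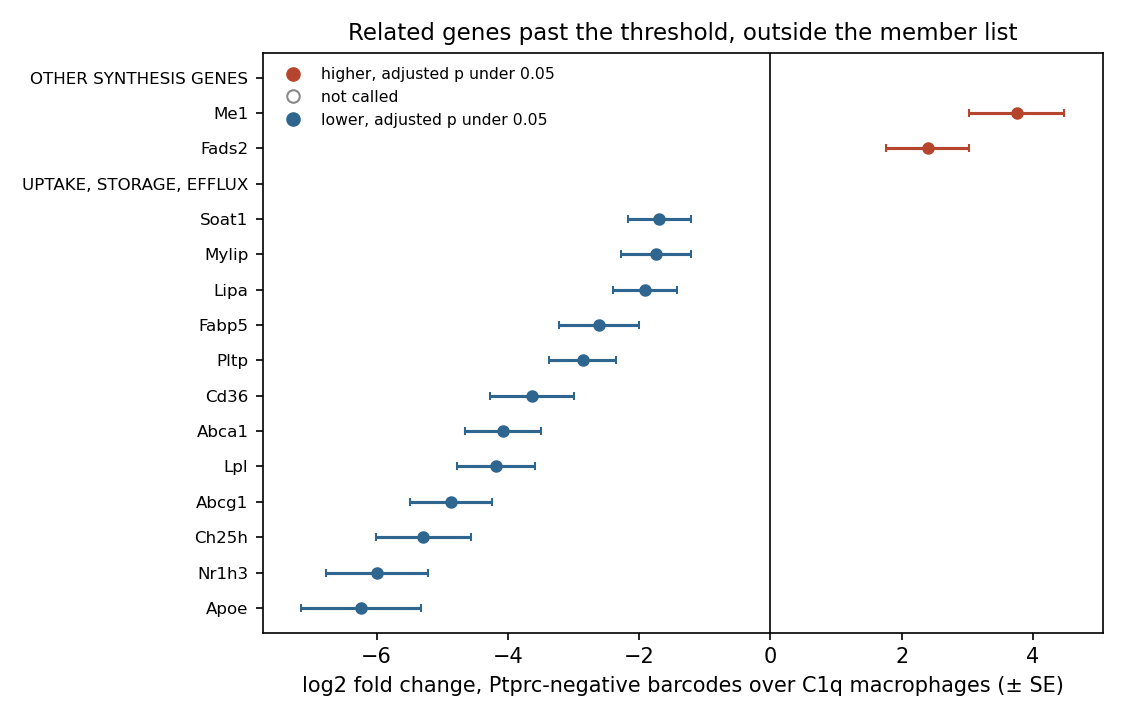
Log2 fold change (± SE, edgeR) in Ptprc-negative barcodes over C1q macrophages of the genes past the threshold in both related lists, 2 other synthesis genes and 12 genes of uptake, storage and efflux. Me1 and Fads2 lie at 3.75 and 2.39, whereas the 12 uptake, storage and efflux genes lie between -1.69 and -6.24, the value of Apoe.

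Against Cd3 T cells, 0 of the 31 members tested were called by edgeR, with 5 at an unadjusted p under 0.05; of all genes, 8.86% were called. DESeq2 gave 16 of them an adjusted p and called 0, and 10.4% of all genes. The T cell sums were small, and only 1 member had 10 UMIs or more in both of their libraries. Fdps had 187 and 135 CPM in Ptprc-negative barcodes, against 90.5 and 36.2 CPM in T cells (log2 fold change 1.79 ± 0.65, edgeR adjusted p = 0.061). Scd1 had 173 UMIs over both Ptprc-negative libraries, against 1 in T cells, a ratio of 8.58 per UMI sequenced (exact 95% interval 1.52 to 341). The corresponding ratio for Fasn, with 238 UMIs in Ptprc-negative barcodes, against 3 in T cells, was 3.93 (1.33 to 19.2). Of the related genes, 0 were higher and 3 of the uptake and efflux list were lower: Abcg1 (2 and 13 UMIs in Ptprc-negative barcodes, against 2 and 9 in the far smaller T cell sums), Apoe and Cd36. The Cd36 call rests on replicate 2, where T cells had 6 UMIs, since they had 0 in replicate 1; the log2 fold change was -3.22 (edgeR adjusted p = 0.026) and turned to 2.52 in replicate 1 alone. Apoe, with 211 and 55.5 CPM in Ptprc-negative barcodes, against 935 and 815 CPM in T cells, was lower by -1.67 and -3.70 on the log2 scale in replicates 1 and 2 taken alone.

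With clusters named by leading genes, whose T cell sums were larger, 5 members were called higher and 2 lower by edgeR, beside 11.9% and 14.9% of all genes, 26.8% in all. Fdps, Scd1, Scd2, Mvk and Lss were higher in the Ptprc-negative clusters, and Ebp and Npc2 were lower. Scd1, Mvk and Lss had too few UMIs to pass the filter through the T cell clusters, which favours a higher call. Fasn missed the threshold there, with 57.3 and 43.5 CPM in Ptprc-negative clusters, against 25.9 and 19.1 CPM in T cell clusters (1.29 ± 0.54, edgeR adjusted p = 0.064). Fdps had 195 and 131 CPM in Ptprc-negative clusters, against 62.1 and 39.8 CPM in T cell clusters (1.84 ± 0.46, edgeR adjusted p = 0.00048), and Npc2 had 109 and 392 CPM in Ptprc-negative clusters, against 523 and 672 CPM in T cell clusters (-1.28 ± 0.42, edgeR adjusted p = 0.012). Mvk had 111 UMIs in Ptprc-negative clusters, against 3 in T cells, a ratio of 5.6 (1.87 to 27.6), and Lss had 35 in Ptprc-negative clusters, against 0 in T cells, at least 1.77-fold higher when set against 3 UMIs over both T cell libraries. Scd1 had 199 UMIs in the Ptprc-negative clusters and 0 in both libraries of T cells, at least 10.0-fold higher by the same measure. Scd2 had 135 and 193 CPM, against 25.9 and 52.5 CPM in T cell clusters (log2 fold change 2.23 ± 0.48, edgeR adjusted p = 3.9e-05). Ebp had 23.7 and 18.4 CPM in Ptprc-negative clusters, against 67.3 and 68.4 CPM in T cell clusters (-1.55 ± 0.48, edgeR adjusted p = 0.0062). Both Ptprc-negative libraries lay below both T cell libraries, which adds no support since the test used the same values. The T cell clusters also held C1q RNA, at the levels given above.

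Summed over a branch, members with few UMIs can be followed across all classes; these sums are descriptions with exact Poisson intervals and no test. The fatty acid sum was 265 and 332 CPM in the Ptprc-negative clusters. It was 60.3 and 68.6 CPM in plasmacytoid dendritic cells, 54.0 and 75.6 CPM in other dendritic cells, 62.1 and 89.1 CPM in T cells, 64.6 and 72.4 CPM in neutrophils and 61.4 and 95.3 CPM in macrophages. The Ptprc-negative intervals, from 245 to 353 CPM over both libraries, did not reach those of the other classes except the interval of plasmacytoid cells in replicate 2 (8.3 to 248). The 5 immune classes could not be ordered by this sum, since their intervals overlapped. In the Ptprc-negative clusters Scd2 held the largest part of the fatty acid sum in both libraries. The members called above enter this sum, so it adds no separate support for them. Among the clusters left out, the one led by Col1a1 had 299 CPM (167 to 493) in replicate 2, from 15 UMIs. The one led by Chil3, Mgl2 and Napsa had 98.7 CPM (70.5 to 134) in replicate 1 and 149 CPM (94.3 to 223) in replicate 2. Those led by Hist1h4d and by Gzmc had 67.3 and 39.9 CPM in replicate 1.

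The mevalonate sum had another order. It was highest in plasmacytoid dendritic cells, the type known for interferon production, at 744 CPM (interval 524 to 1025) in replicate 1 and 515 CPM (288 to 849) in replicate 2. The Ptprc-negative clusters had 371 and 237 CPM and other dendritic cells 281 and 287 CPM, with the order of these classes turned round between the libraries. T cells (176 and 153 CPM), neutrophils (172 and 128 CPM) and macrophages (146 and 153 CPM) had lower values, and their intervals overlapped one another. The intervals of T cells in both libraries (122 to 246 and 124 to 187) and of neutrophils in both libraries (74.3 to 339 and 86.2 to 182) also overlapped those of other dendritic cells. Of the 71 barcodes with a class in the neutrophil cluster, 55 were C1q macrophages by the gate, and it held 10590 and 3702 CPM of the 5 macrophage markers beside 990 and 2104 CPM of the 4 neutrophil markers, so its likeness to macrophages cannot be told apart from a mixture with them. The plasmacytoid values rest on 37 and 15 UMIs in 30 and 18 barcodes, and Fdps gave 13 and 6 of them, Pmvk 8 and 6, and Hmgcs1 9 and 0. The Siglech gate gave 19 and 2 UMIs of the branch in 10 and 3 barcodes. In replicate 2 the plasmacytoid interval overlapped that of other dendritic cells (173 to 449). In replicate 1 it lay above the intervals of the other 5 classes, but overlapped those of single clusters within them. The Ptprc-negative cluster led by Shisal2b and histone genes had 546 CPM (interval 481 to 617) in that library. A dendritic cluster led by Ccr7 and Ccl22 had 480 CPM (interval 317 to 699). The plasmacytoid cluster was mixed by its markers: 13 of its 21 barcodes with a class passed the Siglech gate, and it held 5950 and 3569 CPM of the plasmacytoid markers, 6553 and 10122 CPM of the dendritic markers and 5990 and 5799 CPM of the macrophage markers. The part of these other cells in its values was not tested.

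The sum from squalene to cholesterol was 143 and 187 CPM in the Ptprc-negative clusters, 302 and 343 CPM in plasmacytoid dendritic cells, 156 and 106 CPM in other dendritic cells, 176 and 159 CPM in T cells, 108 and 153 CPM in neutrophils and 147 and 164 CPM in macrophages. The plasmacytoid values, from 15 and 10 UMIs, were the highest, but were not separated from most classes. Their interval in replicate 1 (169 to 497) overlapped those of other dendritic cells, T cells and neutrophils, and their interval in replicate 2 (165 to 631) overlapped those of all 5 other classes. The control genes gave sums of 60.5 to 206 CPM over the classes and libraries, and no class stood apart from the others in both libraries. The transport sum, in which Npc2 holds most UMIs, was 125 and 415 CPM in the Ptprc-negative clusters, 603 and 961 CPM in plasmacytoid dendritic cells, 608 and 937 CPM in other dendritic cells, 559 and 708 CPM in T cells, 538 and 937 CPM in neutrophils and 892 and 1048 CPM in macrophages. In replicate 1 and in replicate 2 the Ptprc-negative interval lay below that of every other class of the same library.

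**Figure D4:**
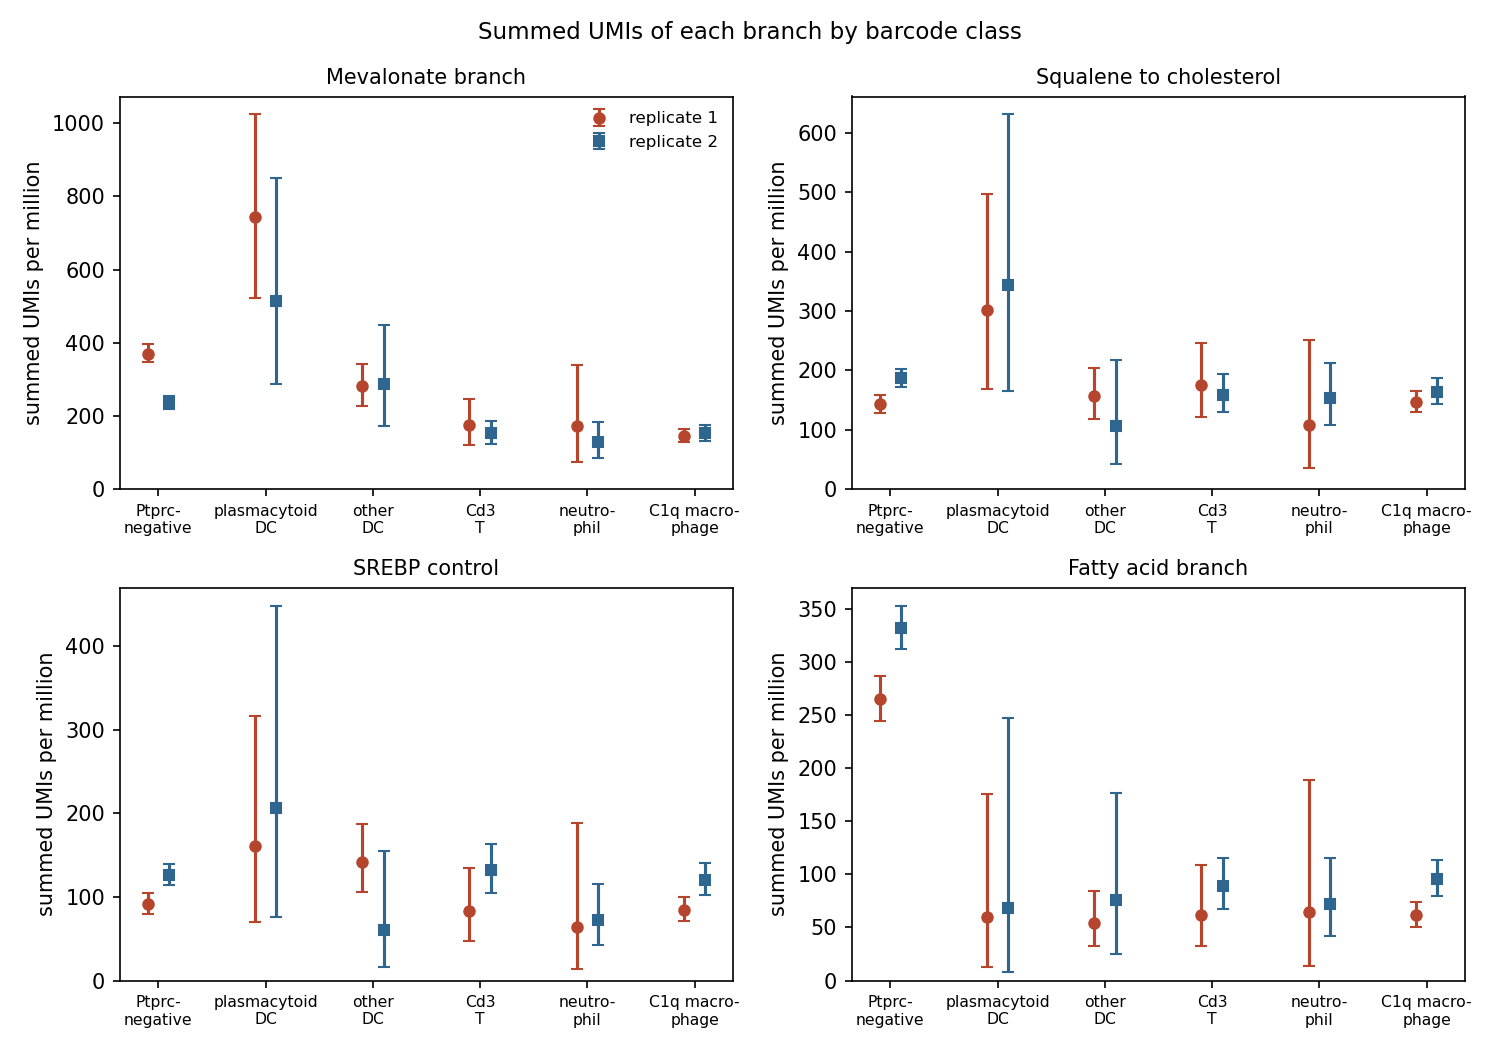
Summed UMIs (CPM) of 4 branches in clusters named by leading genes, for replicate 1 (circles) and replicate 2 (squares), with exact 95% Poisson intervals that cover counting error only. The fatty acid sum is 265 and 332 in the Ptprc-negative clusters, against 54.0 to 95.3 in the other classes shown. The mevalonate sum is 744 and 515 in plasmacytoid dendritic cells. Clusters without a class are not drawn.

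Between immune classes single members were at the limit of detection. Plasmacytoid against other dendritic cells gave 0 members called by edgeR in the gated sums, with 1 at an unadjusted p under 0.05, and 0 in the clusters, with 0 at an unadjusted p under 0.05; of all genes, 0.0799% and 0.302% were called. DESeq2 gave 1 member an adjusted p and called 0, and 2.14% of all genes. In the clusters Fdps had 261 and 206 CPM in plasmacytoid cells, against 93.8 and 75.6 CPM in other dendritic cells (log2 fold change 0.87 ± 0.59, edgeR adjusted p = 0.72). Msmo1, the sterol methyl oxidase gene, had 101 and 68.6 CPM in plasmacytoid cells, against 34.1 and 15.1 CPM in other dendritic cells (0.87 ± 0.85, edgeR adjusted p = 0.78). The fold changes there carry a shift, since the median over all genes was -0.67 in the clusters and -1.23 in the gated sums.

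Other dendritic cells against macrophages gave 0 members called by edgeR in gated sums and in clusters, with 2 and 1 at an unadjusted p under 0.05, where 0.776% and 0.335% of all genes were called; DESeq2 called 0 members and 0.983% of genes. T cells against macrophages gave 0 in both, with 1 and 1 at an unadjusted p under 0.05, where 1.05% and 0.81% of all genes were called; DESeq2 called 0 members and 1.02% of genes. Of the related genes the lipoprotein gene Apoe was lower than in macrophages in other dendritic cells, T cells and neutrophils, at 441 and 942, 935 and 815, and 4284 and 937 CPM, against 16712 and 4079 CPM in macrophages. Lpl was at 0 UMIs in the gated dendritic cells (edgeR adjusted p = 0.045), and Pltp had 2 and 2 UMIs in T cells, against 232 and 126 in macrophages (edgeR adjusted p = 0.0079). In the gated neutrophils Npc2 was called lower, with 0 and 1 UMIs in neutrophils, against 1340 and 810 in macrophages (edgeR adjusted p = 0.0060). Per UMI sequenced the ratio was 0.14 (exact 95% interval 0.0035 to 0.77). The call rests on 3 and 7 barcodes, the median log2 fold change of all genes there was -5.90, and 3.2% of all genes were called. DESeq2 called 0 members there. In the neutrophil clusters, which held 26 and 171 barcodes, Npc2 had 517 and 877 CPM, against 843 and 999 CPM in macrophage clusters, and 0 members were called (1 at an unadjusted p under 0.05), as were 0.0864% of all genes.

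Within the Ptprc-negative class, barcodes were split by 16 cell cycle genes outside the members after thinning to 1000 UMIs, into 101 and 236 cycling barcodes with 2 or more such UMIs and 319 and 388 non-cycling barcodes with none. Median depth differed between them, at 3249 and 3093 UMIs in cycling barcodes, against 2059 and 2183 in non-cycling barcodes. Scd1 and Npc2 were lower in cycling barcodes, and no member was higher, among 21 tested; of all 5654 genes tested, 3.68% were called higher and 3.18% lower, 6.86% in all. Scd1 had 16.1 and 30.2 CPM in cycling barcodes, against 41.8 and 56.1 CPM in non-cycling barcodes, or -1.13 ± 0.31 on the log2 scale (edgeR adjusted p = 0.0056). Both cycling values lay below both non-cycling values, which adds no support since the test that called Scd1 used the same values. Npc2 had 96.4 and 313 CPM in cycling barcodes, against 115 and 465 CPM in non-cycling barcodes, lower in both libraries though the classes overlap across libraries (-0.58 ± 0.17, edgeR adjusted p = 0.012). Fasn had 62.0 and 42.2 CPM in cycling barcodes, against 53.0 and 46.7 CPM in non-cycling barcodes (-0.08 ± 0.27), Scd2 had 112 and 168 CPM in cycling barcodes, against 138 and 209 CPM in non-cycling barcodes (-0.41 ± 0.18, edgeR adjusted p = 0.20), and Fdps had 220 and 142 CPM in cycling barcodes, against 156 and 130 CPM in non-cycling barcodes (0.20 ± 0.18, edgeR adjusted p = 0.66). Among the related genes tested, Apoe was lower in cycling barcodes (87.2 and 29.1 CPM in cycling barcodes, against 132 and 61.7 CPM in non-cycling barcodes; -0.91 ± 0.25, edgeR adjusted p = 0.0053). This split has 1 residual degree of freedom. With DESeq2, which called 1.59% of all genes, and with edgeR without the library block, Scd1 and Npc2 had adjusted p-values of 0.9997 and 0.9995. Without the block edgeR called 0 of all genes, with 217 at an unadjusted p under 0.05.

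**Figure D5:**
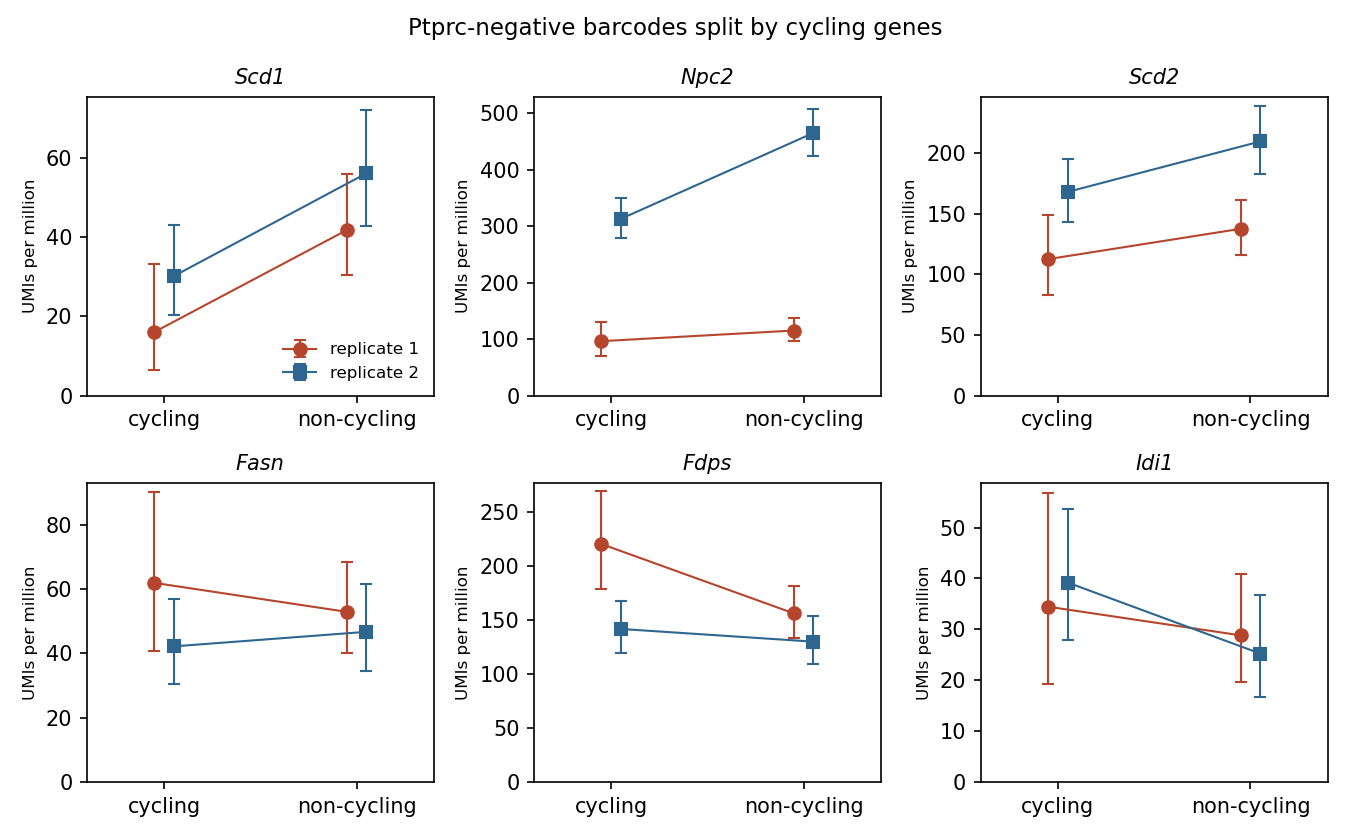
CPM of 6 members in cycling and non-cycling Ptprc-negative barcodes, with lines joining the values of the same library and exact 95% Poisson intervals. Scd1 lies at 16.1 and 30.2 in cycling barcodes, against 41.8 and 56.1 in non-cycling barcodes; Fasn and Fdps did not pass the test.

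Within the macrophages, barcodes with inflammatory genes (Il1b, Ly6i, Clec4n, Cxcl9; 85 and 380 barcodes) were set against barcodes with Trem2, Fcrls, Stab1 or Gpnmb (304 and 18). The classes were so unevenly spread over the libraries that Npc2 was the only member tested. It had 735 and 954 CPM in inflammatory barcodes, against 835 and 559 CPM in Trem2 barcodes, and the groups overlapped (log2 fold change 0.09 ± 0.27, edgeR adjusted p = 0.97, with 0 members at an unadjusted p under 0.05 and 0 called by DESeq2). Apoe was lower, with 12882 and 3284 CPM in inflammatory barcodes, against 20419 and 10207 CPM in Trem2 barcodes (-1.16 ± 0.19, edgeR adjusted p = 0.025). Of all genes there, 0.8% were called by edgeR and 1.69% by DESeq2.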

How the data were processed

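The deposited matrices, 1 per library, give unnormalized UMI counts of each gene in each barcode, made with Cell Ranger 6.0.1 per the file headers; the submitters' processing notes also name Seurat 4.0.1 and build mm10, and the gene annotation is not given in the sources used here. Barcodes with 300 or more genes and under 10% mitochondrial UMIs were kept (2388 and 2837), and 10 and 36 doublets called by Scrublet (0.419% and 1.27%) were left out; in replicate 1 so low a share may leave doublets in. The libraries total 5688000 and 5862342 UMIs, and intervals cover counting error only. Gates on marker UMIs gave 6 classes, and Leiden clusters were built in scanpy 1.11.5 without the members and related genes. Counts were summed per library and class. Genes with 10 or more UMIs in both library sums of at least 1 class were tested with edgeR 4.0.16 (TMM scaling, library block, Benjamini-Hochberg, threshold 0.05), and the SE of a log2 fold change was taken from its F value. The libraries pair the classes because every class was taken from each library. DESeq2 1.42.0, other filters, fits without the block, other gates and leaving out each library were tried. On simulated data with the estimated dispersion (0.085), the comparison of Ptprc-negative barcodes with macrophages recovered 49.5% of 4-fold and 2.04% of 2-fold changes among 193 changed genes of 8893, with 2% false calls. The simulation used 1 dispersion for all genes and changed only genes with an expected macrophage count of 10 or more. Far fewer genes changed in it than were called in the data. Its rates therefore do not carry over, and the power to find 2-fold changes in the data is not known. All members are accounted for; those past the threshold get full statistics, as do related genes in short form. The members and lists were chosen with earlier results of these data known. Positions are from GENCODE M21 (GRCm38), and promoters from RefSeq. Some genes of the related lists are counted but not reported singly here.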

Additional observations from a re-analysis of the deposited data

How the results depend on the processing

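Of the 32 members, 9 were called between Ptprc-negative barcodes and C1q macrophages, and this became 5 with DESeq2, 3 with filterByExpr and 14 with clusters named by their most frequent gate; over all genes 2424 calls became 742 to 3900, and classes of 20 or more barcodes split into 1600 higher and 1531 lower. Against T cells 0 became 2 with no filter on low counts, 1 with filterByExpr, 9 with clusters named by gate, 7 with clusters named by leading genes and 4 with classes of 20 or more barcodes, while 776 calls over all genes ranged from 433 to 2895. T cells against macrophages moved to 1 when only these 2 classes or classes of 20 or more barcodes were fitted. In gated neutrophils 1 became 0 with DESeq2, stricter C1q gates and clusters named by leading genes, and 280 calls over all genes became as few as 6. In the cycling split 2 became 0 with DESeq2, 0 with no replicate block and 4 with no thinning, and 388 calls over all genes became 90, 0 and 904. Leaving out a library gives values with no test; Cd36 over T cells, at -3.22, reversed to 2.52 without replicate 2 (-3.85 without replicate 1), since T cells of replicate 1 held 0 UMIs of it. Leaving out barcodes with matrix genes kept 8 of the 9 calls against macrophages, and Acsl3 was then not tested. Apart from no filter, stricter gates and classes of 20 or more barcodes, which moved the median of all genes to 0.25, 0.25 and 0.20 in that comparison, no alternative moved it by over 0.1. Clusters named by gate held no dendritic or neutrophil class, so those comparisons were not run there. The cause of these changes was not tested. Depth limits the plasmacytoid, dendritic and neutrophil sums, in which few members reached 10 UMIs.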
